A study of Mus musculus with 10 samples.

Results

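The interleukin-1 family was followed through 10 of its genes: the ligands *Il1a*, *Il1b*, *Il18* and *Il33*, the inhibitors *Il1rn*, *Il18bp* and *Il1r2*, and the receptor chains *Il1r1*, *Il1rap* and *Il1rl1*. They were taken by symbol from each of 2 expression tables of 48897 gene rows, and all 10 were found in both. The question was how their RNA differed between prostate cells labelled as lacking *Arid1a*, a DNA-binding subunit of SWI/SNF chromatin remodelling complexes, and cells that kept it.

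The first table held 6 libraries of prostate epithelium from 3-month-old C57BL/6 mice, sorted as EpCAM-positive, CD45-negative cells. All 6 carried the same engineered deletion of another gene in the prostate epithelium, so the controls were not wild type. The 3 libraries labelled *Arid1a* KO (A, B and C) carried in addition a prostate-epithelial *Arid1a* deletion, and the 3 controls (A, B and C) did not. Both deletions were driven by a Cre recombinase under the Probasin promoter, which is active in prostate epithelial cells, so cells of other types keep both genes. The second table held 4 libraries of Myc-CaP, a line from a prostate tumour of an FVB mouse with a c-Myc transgene: 2 with an empty vector (EV 1 and EV 2) and 2 with *Arid1a* knocked out by CRISPR (KO 1 and KO 2). The labels do not settle whether KO 1 and KO 2 were separate lines, or whether these cells came from culture or from tumours. The study's methods give 3 mice for the epithelium, while the labels do not tie a library to an animal. For Myc-CaP nothing says that replicates were separate cultures, so p-values there measure the spread between these libraries, which may be technical. Epithelium values are RPKM, reads per kilobase of gene scaled to library depth. Myc-CaP values are TPM, in which transcripts are scaled to the same total in each library. The tables were normalized separately and each was tested on its own. From the steps between low values, the epithelium libraries held an estimated 28800000 to 36300000 reads. For Myc-CaP the steps gave reads per unit of TPM and kilobase, which yield estimated reads of a gene but no library total.

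Members of this family are secreted or released cytokines of inflammation. IL-1α and IL-1β bind the receptor IL-1R1, which then recruits the accessory chain IL-1RAP and signals through MyD88 and IRAK kinases to NF-κB. The antagonist IL-1Ra, encoded by *Il1rn*, occupies IL-1R1 without signalling, and IL-1R2 is a decoy receptor with no signalling domain. IL-33 is a nuclear alarmin of epithelial and stromal cells that is sensed by ST2, the product of *Il1rl1*, again with IL-1RAP. IL-18 needs cleavage by caspase-1 and is held in check by IL-18BP.

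By the GENCODE annotation of GRCm38, *Il1a* (chr2:129299610-129309972) and *Il1b* (chr2:129364570-129371139) are neighbours on the minus strand of chromosome 2, and *Il1rn* (chr2:24336853-24351494) lies apart on the same chromosome beside the IL-36 ligand genes. *Il1r2*, *Il1r1* and *Il1rl1* share a receptor cluster on chromosome 1, from chr1:40074079 to 40465415, which goes on with *Il18r1* and *Il18rap*. *Il33* lies on chromosome 19, *Il1rap* on 16, *Il18* on 9 and *Il18bp* on 7.

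The promoters of the 4 genes with the clearest differences are shown because they are where short core and AP-1 motifs can be compared between members. *Il1a* and *Il1b* were the ligands of IL-1R1, *Il1rn* its antagonist, and *Il33* the ligand called in both systems. Each run is the 250 bases before a RefSeq start on GRCm38, read 5′ to 3′ on the gene's strand, and capitals mark matches to the letters TGANTCA, an AP-1 site, or to those of the TATA box, which are TATAAA. Both strands were searched, and no match overlapped another. The runs lie at chr2:129309973-129310222 (minus strand) for *Il1a*, chr2:129371140-129371389 (minus) for *Il1b*, and chr2:24336610-24336859 (plus) for the most upstream of 3 *Il1rn* starts. The 2 starts of *Il33* follow chr19:29924863-29925112 and chr19:29945540-29945789, both on the plus strand.
Il1a: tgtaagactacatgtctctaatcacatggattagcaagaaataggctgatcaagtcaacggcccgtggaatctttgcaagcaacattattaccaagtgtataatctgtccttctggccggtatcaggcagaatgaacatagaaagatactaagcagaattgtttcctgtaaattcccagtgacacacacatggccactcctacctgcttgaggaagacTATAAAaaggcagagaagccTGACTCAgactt
Il1b: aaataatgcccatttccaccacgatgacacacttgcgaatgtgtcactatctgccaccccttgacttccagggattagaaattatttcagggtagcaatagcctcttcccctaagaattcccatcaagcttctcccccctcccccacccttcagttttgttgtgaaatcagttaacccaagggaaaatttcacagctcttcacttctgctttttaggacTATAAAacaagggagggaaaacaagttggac
Il1rn: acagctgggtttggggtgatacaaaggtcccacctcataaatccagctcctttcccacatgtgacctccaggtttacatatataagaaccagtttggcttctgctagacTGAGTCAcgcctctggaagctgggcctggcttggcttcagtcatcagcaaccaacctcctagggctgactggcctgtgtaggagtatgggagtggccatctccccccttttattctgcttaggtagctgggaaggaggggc
Il33 start 1: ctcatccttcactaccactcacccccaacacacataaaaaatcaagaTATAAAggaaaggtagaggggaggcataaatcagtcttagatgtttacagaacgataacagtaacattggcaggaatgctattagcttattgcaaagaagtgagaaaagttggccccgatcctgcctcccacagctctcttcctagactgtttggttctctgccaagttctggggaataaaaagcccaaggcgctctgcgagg
Il33 start 2: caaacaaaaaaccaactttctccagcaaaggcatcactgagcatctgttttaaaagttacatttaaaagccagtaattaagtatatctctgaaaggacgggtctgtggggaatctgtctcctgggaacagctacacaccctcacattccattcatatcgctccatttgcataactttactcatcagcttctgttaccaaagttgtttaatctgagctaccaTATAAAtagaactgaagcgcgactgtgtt

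Counting from the start, the AP-1 letters began at position -12 in *Il1a* and -141 in *Il1rn*. The TATA letters began at -32 in *Il1a*, at -31 in *Il1b* and at -29 before the second *Il33* start, and at -203 before its first. Over the 15 start windows of the 10 members, each running from 250 bases before to 50 after a start, 2 held the AP-1 letters and 6 the TATA letters. Among all 32851 such windows in the reference, 7.81% held the AP-1 letters and 13.6% the TATA letters. The NF-kB consensus was found in 1 member window, before the second start of *Il1r1*, against 8.46% of all windows. A match is a stretch of letters, not a bound site, and the tables do not say which start was used.

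*Arid1a* itself checks the labels. In the epithelium its RPKM was 27.8, 21.9 and 26.5 in the controls and 31.1, 28.8 and 30.8 in the libraries labelled *Arid1a* KO, a log2 fold change of 0.25 ± 0.09 (SE, adjusted p = 0.0540, limma). It was not lower there, and a gene total need not show the loss of a few exons, so this row does not check the genotype. In Myc-CaP, *Arid1a* fell from 60.5 and 61.0 TPM with the empty vector to 39.5 and 40.3 TPM in the KO libraries, by 0.59 on the log2 scale (adjusted p = 0.0102).

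In the sorted epithelium, the ligand genes *Il1a*, *Il1b*, *Il33* and *Il18*, the antagonist *Il1rn*, the decoy *Il1r2*, and the receptor chains *Il1rap* and *Il1rl1* all had more RNA in the KO libraries than in the controls. *Il1r1* was lower and *Il18bp* did not pass the test. By limma on log2(RPKM + 1) with Benjamini-Hochberg adjustment over 16275 genes, 9 of 10 members were called at an adjusted p under 0.05, 8 higher and 1 lower. Across all genes tested 57.1% were called, 27.5% higher and 29.6% lower. The members' median log2 fold change was 0.92, beside -0.03 for all genes tested. When libraries were rescaled to the same sum the median of all genes moved to 0.11 and the calls over all genes split into 6046 higher and 3277 lower, in place of 4471 and 4823, with 9 members higher and 0 lower. Values of 9 members did not overlap between the groups, 8 higher and 1 lower, as for 66.7% of all genes (32.4% higher and 34.4% lower).

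**Figure D1:**
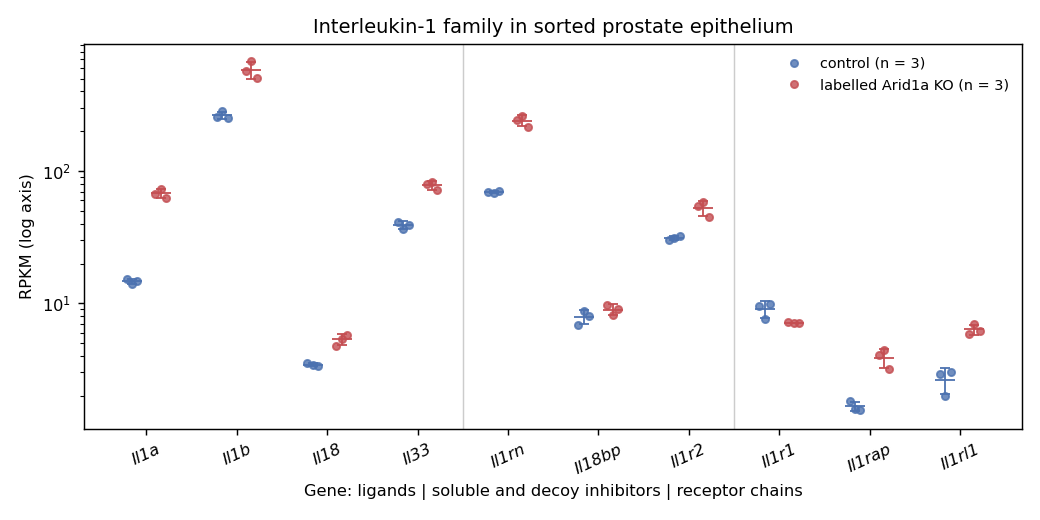
RPKM (log axis) of the 10 genes in each sorted epithelium library, with controls in blue and libraries labelled Arid1a KO in red. Horizontal marks and bars are means and SDs (n = 3), and every gene but Il18bp is without overlap between the groups.

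*Il1a*, a cytokine that is active as its precursor and is released by damaged epithelial cells, showed the widest difference of the 10. Its level was 15.3, 14.1 and 14.8 RPKM in controls A, B and C, and 67.1, 73.1 and 62.9 RPKM in the KO libraries A, B and C. All 3 KO libraries stood far above all controls, a 4.59-fold difference of means. The log2 fold change was 2.12 ± 0.07 (SE, adjusted p = 2.94e-06).

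*Il1b*, whose product is made mainly by myeloid cells and needs cleavage before it signals, had the highest RPKM of the members in both groups. It measured 257, 284 and 254 RPKM in the controls and 573, 674 and 507 RPKM in the KO libraries. The groups did not overlap and the KO libraries spread more widely, with an SD of 84.0 against 16.5. The log2 fold change was 1.13 ± 0.12 (adjusted p = 0.000197).

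Because *Il1a* differed more than *Il1b*, the balance between these ligands shifted. The *Il1b* to *Il1a* ratio within a library was 16.8, 20.2 and 17.1 in the controls and 8.54, 9.22 and 8.06 in the KO libraries. *Il1b* still exceeded *Il1a* in every library.

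*Il33*, the alarmin, measured 41.5, 36.7 and 39.3 RPKM in the controls and 79.8, 82.9 and 71.8 RPKM in the KO libraries. The lowest KO library was well above the highest control, and the log2 fold change was 0.98 ± 0.08 (adjusted p = 7.32e-05). *Il18*, the caspase-1 substrate, was a low-level transcript at 3.55, 3.44 and 3.35 RPKM in controls and 4.79, 5.40 and 5.80 RPKM in KO libraries. That smaller difference also passed, at 0.51 ± 0.08 (adjusted p = 0.00165).

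Among the inhibitors, *Il1rn* followed the ligands it opposes. It measured 69.5, 68.1 and 71.1 RPKM in the controls and 243, 262 and 216 RPKM in the KO libraries. The controls were nearly equal, all KO libraries stood far above them, and the log2 fold change of 1.77 ± 0.08 (adjusted p = 9.80e-06) was second in size to that of *Il1a* among the members. Set against the sum of both agonists, the *Il1rn* to *Il1a* plus *Il1b* ratio was 0.250 ± 0.019 in the controls and 0.370 ± 0.016 in the KO libraries (SD, n = 3), without overlap. By RPKM, antagonist RNA was thus below agonist RNA in all 6 libraries, and closer to it in the KO libraries. An order between genes depends on the gene lengths used for RPKM, which are not known here.

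The decoy receptor gene *Il1r2* measured 30.0, 31.0 and 32.0 RPKM in the controls and 54.1, 58.1 and 45.2 RPKM in the KO libraries, with a log2 fold change of 0.73 ± 0.09 (adjusted p = 0.000563). The signalling receptor gene *Il1r1* went the other way, from 9.60, 7.56 and 9.95 RPKM to 7.16, 7.09 and 7.10 RPKM. Its 3 KO libraries were nearly equal, and control B lay only just above them. The log2 fold change of -0.30 ± 0.10 passed narrowly (adjusted p = 0.0364). The call was lost when libraries were rescaled to the same sum (-0.14, adjusted p = 0.343), without the filter on low values, with upper-quartile scaling and without any 1 library except control B. The *Il1r2* to *Il1r1* ratio was 3.13, 4.10 and 3.22 in the controls and 7.56, 8.19 and 6.36 in the KO libraries. By RPKM, decoy RNA thus exceeded receptor RNA in every library, an order that again depends on the gene lengths used.

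**Figure D2:**
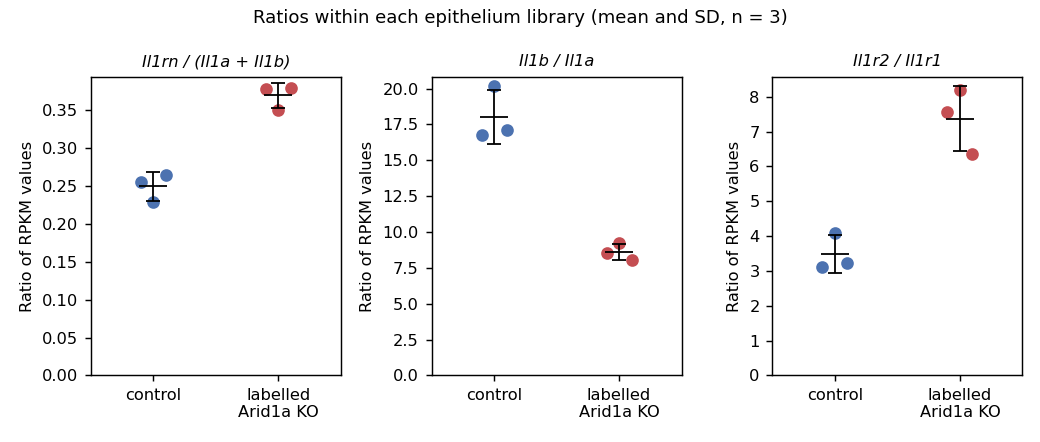
Ratios of RPKM values within each sorted epithelium library, with points for libraries and black marks for means and SDs (n = 3). In red, the libraries labelled Arid1a KO had the higher antagonist and decoy ratios (0.370 against 0.250, and 7.37 against 3.48), and the lower Il1b to Il1a ratio (8.61 against 18.0).

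By RPKM, the shared accessory chain gene *Il1rap* was the lowest member in both groups, at 1.82, 1.60 and 1.56 RPKM in the controls and 4.04, 4.43 and 3.19 RPKM in the KO libraries. It was higher by 0.87 ± 0.11 on the log2 scale (adjusted p = 0.000543). *Il1rl1*, the ST2 receptor gene, measured 2.94, 1.99 and 3.02 RPKM in the controls and 5.89, 6.95 and 6.21 RPKM in the KO libraries. Its log2 fold change was 1.02 ± 0.13 (adjusted p = 0.000481). The ligand and its receptor differed by similar amounts, and the *Il33* to *Il1rl1* ratio overlapped between the groups (15.2 ± 2.85 and 12.3 ± 1.06).

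*Il18bp*, the secreted IL-18 inhibitor, was the member that did not pass. It measured 6.91, 8.78 and 8.04 RPKM in the controls and 9.77, 8.09 and 9.03 RPKM in the KO libraries, which overlapped. The log2 fold change was 0.16, with a 95% interval from -0.07 to 0.40 (adjusted p = 0.202). Rescaling to the same sum gave 0.32 (adjusted p = 0.0192), and removing the trend with gene length gave 0.29 (adjusted p = 0.0327).

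By mean RPKM in the controls the order was *Il1b*, *Il1rn*, *Il33*, *Il1r2*, *Il1a*, *Il1r1*, *Il18bp*, *Il18*, *Il1rl1* and *Il1rap*. Only *Il1r1* and *Il18bp* overlapped among neighbours in that order. In the KO libraries *Il1a* passed *Il1r2* and overlapped *Il33*, and *Il18bp* stood above *Il1r1*. Like the ratios above, these orders depend on the gene lengths used for RPKM, which are not known here.

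Markers of cells other than epithelium were measured in these libraries, and several lists differed with the label, in both directions. In bulk RNA, fewer cells of a type and less RNA per cell cannot be told apart. The counts below stand beside 27.5% of all genes tested called higher and 29.6% called lower. *Ptprc*, which encodes the CD45 antigen used to sort cells out, measured 26.0 to 30.3 RPKM in the controls and 56.2 to 58.1 RPKM in the KO libraries. All 9 macrophage markers were called higher, and their summed level was 2328 to 2715 RPKM in the controls and 4168 to 4891 RPKM in the KO libraries. Of 5 pan-leukocyte markers 4 were called higher and 1 lower, with sums of 712 to 746 and 798 to 859 RPKM. Of 8 neutrophil markers 4 were called higher, with sums of 339 to 475 and 387 to 639 RPKM that overlapped. Mast cell markers went the opposite way, with 5 of 6 tested called lower and sums of 278 to 320 against 51.0 to 90.6 RPKM. Of 5 B cell markers 4 were called higher (125 to 140 against 430 to 751 RPKM), as were 4 of 7 T cell markers, among them *Foxp3*. Most of the B cell sum was *Ighm*, with means of 123 and 587 RPKM, and *Cd79b* was not called.

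**Figure D3:**
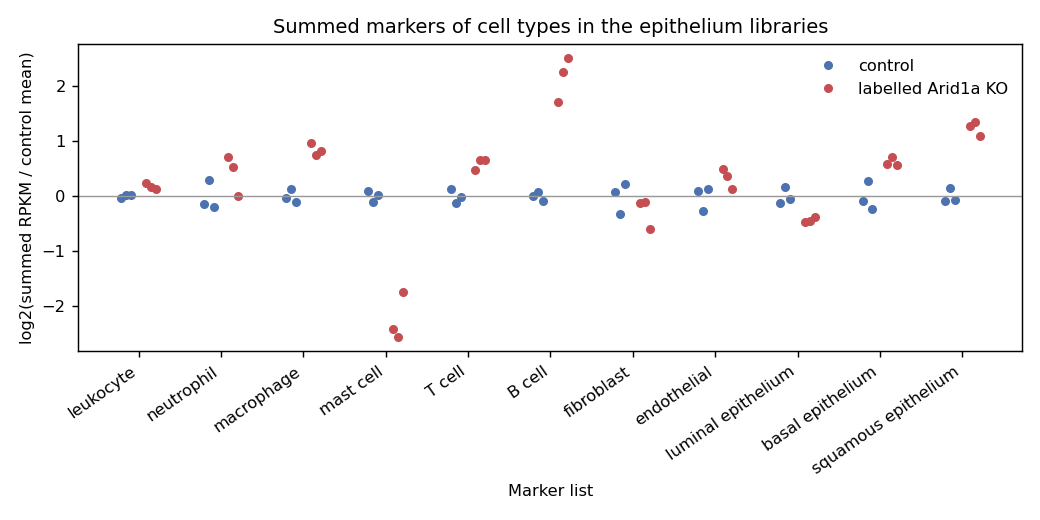
Summed RPKM of each marker list in each sorted epithelium library, as log2 of the ratio to the control mean, with controls in blue and libraries labelled Arid1a KO in red. Macrophage, B cell and squamous sums were higher in all 3 KO libraries (mean ratios 1.80, 4.56 and 2.36) and the mast cell sum was lower (0.219). Most of the B cell sum was Ighm (means 123 and 587 RPKM), and Krt13 went from a mean of 12.7 to 453 RPKM within the squamous sum.

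Epithelial and stromal markers differed as well, with counts to be read beside the same 27.5% of all genes called higher and 29.6% lower. Of 6 squamous markers tested 5 were called higher, and their sum was 550 to 643 RPKM in the controls and 1236 to 1480 RPKM in the KO libraries. Of 6 luminal markers 5 were called lower, among them *Pbsn*, the gene of the promoter that drives the Cre. All 6 seminal vesicle genes were called lower, with sums of 18306 to 20707 against 623 to 1573 RPKM, and 3 of 6 fibroblast markers were called lower. Of 5 basal markers 2 were called higher, and of 5 endothelial markers 1.

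Set per unit of the macrophage marker sum, *Il1a* was still higher in every KO library than in any control (ratio of means 2.56), as were *Il1rn* (1.92) and *Il1b* (1.24). *Il33* (1.11), *Il1rl1* (1.33), *Il1rap* (1.30), *Il1r2* (0.942) and *Il18* (0.866) then overlapped between the groups, and *Il1r1* (0.436) and *Il18bp* (0.630) were lower without overlap. The squamous sum took the largest part of its difference from *Krt13*, at a mean of 12.7 RPKM in the controls and 453 RPKM in the KO libraries. Set per unit of the squamous sum, *Il1a* (1.94) and *Il1rn* (1.46) remained higher without overlap, while *Il1b* (0.932), *Il33* (0.840), *Il1rap* (0.980) and *Il1rl1* overlapped. On that scale *Il1r2* (0.712), *Il18* (0.659), *Il18bp* (0.484) and *Il1r1* (0.332) were lower in every KO library than in any control. Results depended on the list used. The leukocyte sum differed little (ratio of means 1.13) because *Cd52*, its largest marker in the controls, fell from a mean of 344 to 161 RPKM. Its other markers were called higher, and ratios to a sum without *Cd52* were not computed. Per unit of the leukocyte sum with *Cd52* in it, *Il33* (1.76), *Il1rl1* (2.12), *Il1rap* (2.06) and *Il18* (1.37) stayed higher without overlap. *Il1a*, *Il1b*, *Il1rn* and *Il1r2* did so too, while *Il1r1* (0.697) was lower and *Il18bp* overlapped. *Il33*, *Il1rl1* and *Il1rap* also stayed higher per unit of the neutrophil, T cell, basal, fibroblast and luminal sums. Most of the neutrophil sum was *S100a8* (means 144 and 177 RPKM) and *S100a9* (189 and 251 RPKM), which were not called. *Retnlg* and *Ngp* were not called either. The called *Csf3r*, *Cxcr2*, *Ly6g* and *Mmp8* had fold differences of means of 2.14, 2.49, 2.76 and 5.18, each above that of *Il33*. Ratios to a neutrophil sum without *S100a8* and *S100a9* were not computed. *Il1r2* and *Il18* overlapped on the neutrophil, T cell and basal scales. These ratios are descriptions, and the part that the cell mixture has in the members' differences was not tested.

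In Myc-CaP, most markers of blood cells were at or near 0. *Ptprc* was at most 0.044 TPM, 6 of 8 neutrophil markers and 6 of 7 mast cell markers were at 0 in every library, and the macrophage sum was 0.867 to 3.07 TPM. *Cd52* (3.14 to 5.44 TPM), *Foxp3* (2.47 to 3.43 TPM) and *Cd68* (0.823 to 1.90 TPM) were the blood cell markers that passed the filter, and none was called. Epithelial markers were uneven. *Epcam* was at 0 in 3 of 4 libraries and 0.128 TPM in KO 2, while *Cd24a* was 127 to 216 TPM and *Krt6a* 288 to 542 TPM. *Krt8* rose from 1.07 and 0.790 TPM with the empty vector to 40.3 and 38.8 TPM in the KO libraries. The squamous sum was 293 to 304 TPM with the empty vector and 554 to 587 TPM in the KO libraries. Of the squamous markers 3 of 3 tested were called higher, beside 4.54% of all genes tested. The fibroblast sum differed by replicate number, at 7.07 and 5.89 TPM in EV 1 and KO 1 and 37.3 and 16.5 TPM in EV 2 and KO 2.

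In these libraries *Il33* and its receptor gene *Il1rl1* were the 2 members called, both higher with *Arid1a* knockout. Of the 10 members 7 passed the filter of a mean of 0.5 TPM, and 2 of 7 were called beside 6.43% of 13974 genes tested, of which 4.54% were higher and 1.89% lower. The median log2 fold change of the 7 was 0.08, beside -0.01 for all genes. Values of 4 members did not overlap between the groups, 3 higher and 1 lower, as for 51.5% of genes (24.9% higher and 26.6% lower).

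**Figure D4:**
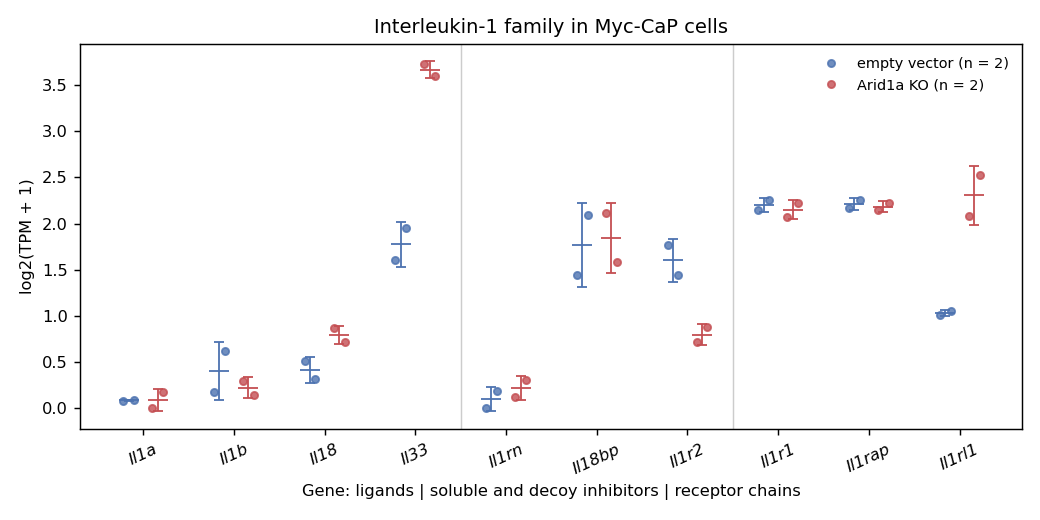
Level of the 10 genes as log2(TPM + 1) in each Myc-CaP library, with empty vector in blue and Arid1a KO in red. Horizontal marks and bars are means and SDs (n = 2), and Il33 and Il1rl1 stand higher in both KO libraries, while Il1a, Il1b and Il1rn lie near 0 in all 4.

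*Il33* measured 2.04 and 2.86 TPM in EV 1 and EV 2 and 12.3 and 11.1 TPM in KO 1 and KO 2, a 4.78-fold difference of means. The log2 fold change was 1.89 ± 0.16 (adjusted p = 0.00694). With 1 library left out, the value lay between 1.72 and 2.06, but the call was lost without EV 1 (adjusted p = 0.0593), KO 1 (0.0900) or KO 2 (0.0755). *Il33* thereby had the highest mean TPM of the 10 in the KO libraries, where it did not overlap *Il1rl1*, the next. With the empty vector it stood below *Il1rap*, *Il1r1* and *Il18bp*.

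*Il1rl1* measured 1.01 and 1.08 TPM with the empty vector and 3.23 and 4.78 TPM in the KO libraries. Its log2 fold change of 1.28 ± 0.21 passed more narrowly (adjusted p = 0.0351). The call was lost without the filter on low values (adjusted p = 0.118), without the mean-variance trend (0.0575) and without any 1 library (0.103 to 0.187). The *Il33* to *Il1rl1* ratio was 2.02 and 2.65 with the empty vector and 3.80 and 2.33 in the KO libraries, which overlapped.

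The decoy gene *Il1r2* measured 2.40 and 1.71 TPM with the empty vector and 0.643 and 0.833 TPM in the KO libraries. The groups did not overlap, but the log2 fold change of -0.80 ± 0.21 did not pass (adjusted p = 0.101). Its sign was opposite to that in the epithelium, and the difference between the systems was not tested. The *Il1r2* to *Il1r1* ratio was 0.696 and 0.451 with the empty vector and 0.200 and 0.226 in the KO libraries. By TPM, receptor RNA here exceeded decoy RNA in every library.

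Both chains of the IL-1 receptor were present at close levels in all 4 libraries. *Il1r1* measured 3.44 and 3.78 TPM with the empty vector and 3.22 and 3.68 TPM in the KO libraries, a log2 fold change of -0.05 with a 95% interval from -0.41 to 0.30. *Il1rap* measured 3.50 and 3.79 TPM against 3.42 and 3.68 TPM, at -0.03 with an interval from -0.37 to 0.31. Neither passed, and the intervals leave out changes as large as that of *Il33*.

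*Il18* was low, at 0.420 and 0.239 TPM with the empty vector and 0.818 and 0.647 TPM in the KO libraries, and its log2 fold change of 0.38 did not pass (adjusted p = 0.395). *Il18bp* measured 1.72 and 3.26 TPM against 3.32 and 1.99 TPM, with a log2 fold change of 0.08 and an interval from -0.70 to 0.85. *Il1a*, *Il1b* and *Il1rn* fell under the filter and were not tested. *Il1a* was 0.054 and 0.061 TPM with the empty vector and 0 and 0.124 TPM in the KO libraries, *Il1b* lay between 0.099 and 0.539 TPM, and *Il1rn* between 0 and 0.233 TPM. These values correspond to at most 9.8 estimated reads per library, a depth at which small differences in these 3 genes could not be seen.

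**Figure D5:**
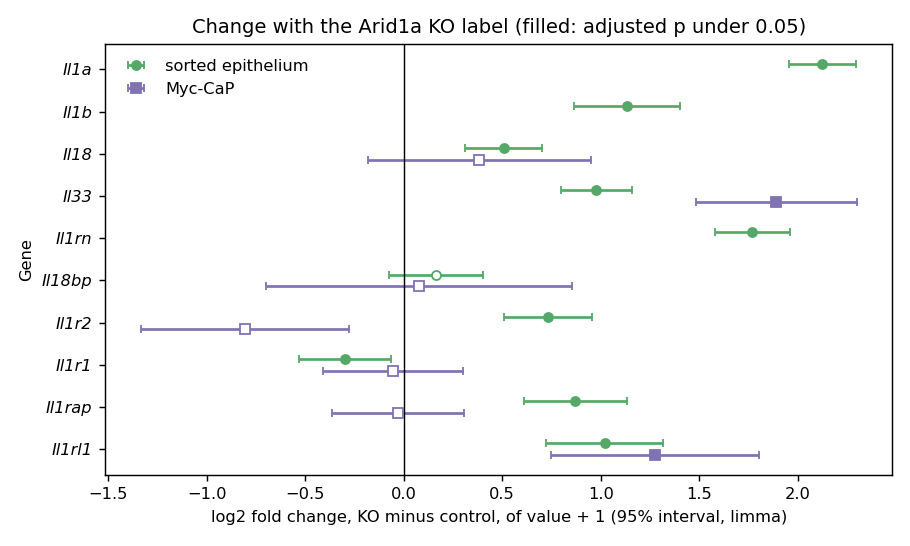
Log2 fold change, KO minus control, of value + 1 with its 95% interval (limma) for each member in the sorted epithelium (green circles) and in Myc-CaP (purple squares). Filled symbols passed an adjusted p of 0.05, and Il33 and Il1rl1 were the members filled in both systems, while Il1a, Il1b and Il1rn were tested only in the epithelium.

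Other genes of the family were examined in the same tables. The IL-36 ligands are named by older symbols there, and *Il1f9*, the gene of IL-36γ, was the one with appreciable expression. It measured 5.92, 6.47 and 7.52 RPKM in the control epithelium and 27.0, 28.1 and 20.6 RPKM in the KO libraries, at a log2 fold change of 1.77 ± 0.13 (adjusted p = 5.44e-05). *Il1f5*, *Il1f6* and *Il1f10* were at most 0.079 RPKM and *Il1f8* was listed at 0 in all 6 libraries. In Myc-CaP all 5 were listed at 0 in every library.

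Of the other receptor genes in the epithelium, *Il1rl2*, the IL-36 receptor, rose from 3.46 ± 0.39 to 5.28 ± 0.10 RPKM and *Il18rap*, the IL-18 accessory chain, from 2.62 ± 0.35 to 5.63 ± 0.76 RPKM (log2 fold changes 0.50 and 0.87). *Sigirr*, an inhibitory orphan receptor of the family, fell from 10.1 ± 1.40 to 7.24 ± 0.05 RPKM (by 0.42 on the log2 scale). *Il18r1*, the IL-18 receptor chain, did not pass at 0.21 (adjusted p = 0.0657), and *Il1rapl1* and *Il1rapl2* were at most 0.025 RPKM. In Myc-CaP *Il18rap* was the single one tested, at 0.18 (adjusted p = 0.642). The others were at most 0.612 TPM there.

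Downstream of the receptors, 10 of 16 signalling genes were called in the epithelium, 8 higher and 2 lower, a share close to the 57.1% of all genes, with a median of 0.16 beside -0.03 for all genes. The kinase genes *Irak4* and *Irak2* rose by 0.94 and 0.82 on the log2 scale, and the ubiquitin ligase gene *Traf6* by 0.71. *Peli3*, a Pellino ubiquitin ligase gene, fell by 0.56 and *Tab1*, a partner of the kinase TAK1, fell by 0.31. In Myc-CaP 14 of the 16 were tested by limma and 0 were called, beside 6.43% of all genes tested. Of the 14, 4 had an unadjusted p under 0.05 in the same test. *Irak4* there was 10.1 and 8.36 TPM against 6.83 and 6.56 TPM.

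Of 10 cytokine processing genes tested in the epithelium 7 were called, 6 higher and 1 lower, beside 57.1% of all genes, and their median was 0.46. The inflammasome sensor gene *Nlrp3* measured 58.5, 53.1 and 58.5 RPKM in the controls and 166, 183 and 135 RPKM in the KO libraries, a log2 fold change of 1.48. *Nlrc4*, another sensor, rose by 0.86 and *Casp1*, which encodes the protease that matures IL-1β and IL-18, by 0.70. *Ctsg*, the cathepsin G gene of neutrophils and mast cells, fell by 0.83. In Myc-CaP 1 of 5 tested was called, beside 6.43% of all genes. This was the calpain gene *Capn2*, which fell by 0.51 from 256 and 261 to 180 and 182 TPM. It was higher by 0.56 in the epithelium.

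Genes that IL-1 is known to induce did not all move one way. In the epithelium 8 of 10 were called, 5 higher and 3 lower, beside 27.5% of all genes higher and 29.6% lower, with a median of 0.50. *Ptgs2*, the cyclooxygenase-2 gene, rose by 1.42, the acute-phase gene *Saa3* by 1.22 and the neutrophil chemokine gene *Cxcl2* by 1.11. *Zc3h12a* and *Nfkbiz* completed the 5 higher calls, at 1.10 and 0.85. *Ccl20*, a chemokine gene, fell by 1.44, the lipocalin gene *Lcn2* by 0.98 and *Il6* by 0.51. The *Il6* call was narrow (adjusted p = 0.0420, limma). Its groups overlapped, at 29.0, 18.5 and 31.3 RPKM in the controls and 19.1, 17.1 and 17.1 RPKM in the KO libraries. In Myc-CaP 3 of 8 were called, 2 higher and 1 lower, beside 4.54% of all genes higher and 1.89% lower. *Ptgs2* was higher by 0.78 and the chemokine gene *Cxcl1* by 0.69, while *Lcn2* was lower, from 99.4 and 101 to 33.0 and 32.8 TPM. *Ptgs2* higher and *Lcn2* lower were the calls that both tables held from this list. With any 1 library left out, *Lcn2* alone of the 4 Myc-CaP calls in these lists held (adjusted p = 0.0322 to 0.0484), while *Capn2*, *Cxcl1* and *Ptgs2* did not pass.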

How the data were processed

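RNA-seq was done on sorted mouse prostate epithelium (3 control and 3 *Arid1a* KO libraries) and on Myc-CaP cells (2 empty vector and 2 *Arid1a* KO libraries). The authors deposited RPKM values for the epithelium and TPM values for Myc-CaP, with gene rows and no raw counts. Reads were paired-end, and the genome build was mm10. The study's methods name TopHat2 as the aligner and HTSeq as the counter, while the submitters' processing notes list HISAT2, HTSeq and DESeq2, and which aligner made these values was not resolved. The single-library tables equalled the joint tables in all 10 libraries, and 0 per-sample columns were left unused.

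Each table was fitted alone with limma 3.58.1 in R 4.3.3 (two-sided, eBayes with a trend) on log2(value + 1) for genes with a mean of at least 0.5, with Benjamini-Hochberg adjustment over all genes tested and calls at an adjusted p under 0.05. Fold changes on this scale understate those of low genes. The fit was tested on simulated data first. Depth was estimated from single-exon genes, where 89.9% to 93.6% of low values lay within 0.1 of a whole read, and reads of members from union gene lengths, which gives upper estimates. These estimates cover counting only, and no count test was run. The main tests did not pair replicates by letter or number. Alternatives were another pseudocount, other filters, no trend, 3 other scalings, removal of a length trend, a replicate block and leaving out each library.

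The 10 members, the pathway lists and the marker lists were chosen with earlier results of these data known. All members and other family genes are named, with up to 4 called genes of the largest change per pathway list and table. Further signalling, response and marker genes were named after their values were seen. Promoters came from RefSeq starts on GRCm38.p6, with 10 of 10 members matched. The other gene deleted in all epithelium mice and the results of some single marker genes are not reported here.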

Additional observations from a re-analysis of the deposited data

Results flagged for a closer look

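Some genes differed in opposite directions in the 2 systems. Every KO library was above all controls in the sorted epithelium, as for 32.4% of all genes tested there. In Myc-CaP every KO library was below all controls, as for 26.6% of all genes tested. The difference between the systems was not tested, since the tables were normalized separately and in different units. *Il1r2*, the decoy receptor gene, had a log2 fold change of 0.73 in the epithelium (adjusted p = 0.000563, limma) and of -0.80 in Myc-CaP (adjusted p = 0.101). *Capn2* had 0.56 (adjusted p = 0.000303) and -0.51 (adjusted p = 0.00999), and was the one of these genes that passed in both. *Irak4* had 0.94 (adjusted p = 3.2e-05) and -0.41 (adjusted p = 0.149). *Tab2*, an adaptor of the kinase TAK1, had 0.34 (adjusted p = 0.00929) and -0.13 (adjusted p = 0.312). *Map3k7*, the gene of TAK1, had 0.25 (adjusted p = 0.0395) and -0.23 (adjusted p = 0.147).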

How the results depend on the processing

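In the epithelium the calls of *Il1a*, *Il1b*, *Il1rn*, *Il1r2* and *Il33* held under all 15 alternatives, and those of *Il18*, *Il1rap* and *Il1rl1* under the 14 in which they were tested. A minimum mean of 5 left fewer genes to test and 5872 called over all genes, in place of 9294. With the replicate block the epithelium kept its count of 9 members called (8823 calls over all genes). Same-letter epithelium libraries correlated at 0.041, 0.0094 and -0.057 in their deviations, and pairs of unlike letters at -0.083 to 0.078. These values showed no pairing by letter but, with 3 libraries a group, cannot settle whether the letters mark one. In Myc-CaP the same-number pairs correlated at 0.195. With 2 libraries a group the deviations within a group are exact opposites, so both pairs share this single value. The replicate block there gave 2771 calls over all genes in place of 899, 9 other pathway genes in place of 4, and 2 members. Without the filter on low values Myc-CaP had 358 calls over all genes, 1 member and 2 other pathway genes. Without the trend it had 451, 1 and 1, and with a minimum mean of 5, which left 1 member tested, 1 member was called. Without 1 library each, Myc-CaP had 47 to 76 calls over all genes, 0 to 1 members and 1 other pathway gene. A lone library is then assumed to vary like the other group. The cause was not tested. Signs turned for *Il1r1* without KO 1 (range -0.1287 to 0.0212 with each library left out), for *Il1rap* without EV 2 (0.0159) or KO 1 (0.0119; range -0.0753 to 0.0159), and for *Il18bp* without EV 1 (-0.2479) or KO 1 (-0.1898; range -0.2479 to 0.3996), none of them called. Low depth limits what can be seen of *Il1a*, *Il1b*, *Il1rn* and *Il18* in Myc-CaP to large differences.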
